A study of Homo sapiens with 36 samples.

Results

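The unreturned lost sites are stretches of chromatin that carried a GATA2 peak in wild-type HUDEP-2 cells, had none in GATA2-low cells with an empty vector, and mostly stayed without one when tagged GATA2 was put back. A site is the merged interval of overlapping peaks of all 28 peak lists on chromosomes 1 to 22 and X. The sites were chosen by measured values, namely the presence of a peak in the anti-GATA2 libraries: at most 2 of 4 HA-GATA2, 0 of 4 GATA2-low empty-vector and 4 of 4 wild-type libraries had one. This rule found 436 sites, which were 28.6% of the 1524 lost sites and 2.52% of all 17277 sites. Lost sites, with 0 of 4 GATA2-low empty-vector and 4 of 4 wild-type libraries, were 13.7% of the 11156 sites with a peak in any of those 8. The other 1088 lost sites had a peak in 3 or 4 of the 4 HA-GATA2 libraries.

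GATA2 is a transcription factor with zinc fingers, active in blood progenitors, that binds the letters GATA in enhancers and promoters, often beside TAL1, LMO2 and LDB1. It is known for controlling the progenitor state and mast cells, and in maturing red cells GATA1 takes its place at many shared sites. T354M is an inherited change in a GATA2 zinc finger that is known from families with myeloid leukaemia. CUT&Tag tethers a transposase to an antibody on chromatin and sequences the released fragments, so a peak marks where the antibody's target, or open chromatin that the transposase reaches, gave many fragments.

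HUDEP-2 is an immortalized human erythroid progenitor line, grown here with erythropoietin, stem cell factor, doxycycline and dexamethasone. GATA2-low cells carry the genotype GATA2+/-. All cells were infected with a lentivirus and sorted for GFP. GATA2-low cells received HA-GATA2(T354M), called T354M here, or HA-GATA2, or an empty vector, and wild-type cells received the empty vector. An in-house rabbit antibody against GATA2 was used on these 4 kinds of cells, and a rabbit anti-HA antibody, which sees the tag, on the GATA2-low cells of all 3 kinds, giving 7 groups of 4 libraries. The anti-GATA2 antibody cannot tell the tagged protein from the cell's own GATA2. The sources used here do not state how many clones lie behind the GATA2-low cells or which promoter the vector has.

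Gene starts turned out to be the commonest place of the unreturned sites, so the letters before 6 of these starts are shown first. Each line gives the 250 bases before the start of the named gene, 5′ to 3′ on the gene's strand, from RefSeq (GRCh38.p14). MYB encodes a progenitor transcription factor and FTL the ferritin light chain, which stores iron. H2BC11 encodes a histone H2B, LSS an enzyme of cholesterol synthesis, MBOAT7 an acyltransferase of membrane lipids and GET3 a factor that inserts proteins into membranes. The regions are chr6:135181058-135181307 on the plus strand for MYB and chr19:48965059-48965308 on the plus strand for FTL. They are chr6:27132796-27133045 on the minus strand for H2BC11 and chr21:46228775-46229024 on the minus strand for LSS. For MBOAT7 the region is chr19:54189581-54189830 on the minus strand, and for GET3 it is chr19:12736856-12737105 on the plus strand. Capitals mark matches, on either strand, to a GATA spelling, the GC box (GGGCGG), the ETS letters or the CCAAT box. The first GATA spelling searched was AGATAA. The others were TGATAA and, with a final G in the place of the last A, AGATAG and its partner TGATAG. The ETS letters searched were CCGGAA on either strand. Of these 6 stretches only that of GET3 holds a GATA match, where the reverse strand reads TGATAG. LSS holds 6 GC boxes, MYB 1 and FTL 2, while H2BC11 holds 4 CCAAT boxes and no GC box.
MYB: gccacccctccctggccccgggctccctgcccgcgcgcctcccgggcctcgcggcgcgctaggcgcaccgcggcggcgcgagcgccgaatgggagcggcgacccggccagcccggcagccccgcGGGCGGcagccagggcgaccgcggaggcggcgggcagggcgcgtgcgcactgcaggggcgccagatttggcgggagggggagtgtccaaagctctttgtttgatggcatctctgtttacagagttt
FTL: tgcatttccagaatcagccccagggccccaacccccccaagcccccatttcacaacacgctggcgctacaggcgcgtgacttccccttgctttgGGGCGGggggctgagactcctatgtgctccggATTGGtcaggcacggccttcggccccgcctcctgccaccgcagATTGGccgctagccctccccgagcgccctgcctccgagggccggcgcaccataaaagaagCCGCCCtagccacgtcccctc
H2BC11: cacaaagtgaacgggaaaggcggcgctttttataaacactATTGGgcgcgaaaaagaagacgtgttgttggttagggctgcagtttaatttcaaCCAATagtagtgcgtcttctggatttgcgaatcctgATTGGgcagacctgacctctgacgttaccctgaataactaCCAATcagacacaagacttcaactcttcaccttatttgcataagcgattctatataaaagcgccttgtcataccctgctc
LSS: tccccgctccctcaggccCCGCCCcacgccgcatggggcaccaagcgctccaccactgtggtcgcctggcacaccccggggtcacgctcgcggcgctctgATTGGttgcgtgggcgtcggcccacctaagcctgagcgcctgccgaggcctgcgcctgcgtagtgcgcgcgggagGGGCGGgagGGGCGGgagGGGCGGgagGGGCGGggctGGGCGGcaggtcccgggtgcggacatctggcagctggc
MBOAT7: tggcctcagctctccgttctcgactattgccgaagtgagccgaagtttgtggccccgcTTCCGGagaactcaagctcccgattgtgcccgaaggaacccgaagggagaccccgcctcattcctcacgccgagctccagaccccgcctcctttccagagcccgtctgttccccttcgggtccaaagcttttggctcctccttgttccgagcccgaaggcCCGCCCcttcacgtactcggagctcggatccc
GET3: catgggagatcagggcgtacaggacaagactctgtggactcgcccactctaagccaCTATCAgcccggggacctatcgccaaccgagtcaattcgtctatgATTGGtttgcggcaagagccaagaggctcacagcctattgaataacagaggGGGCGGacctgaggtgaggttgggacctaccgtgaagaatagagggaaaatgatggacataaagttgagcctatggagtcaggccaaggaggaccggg

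The lists of anti-GATA2 peaks held 2779 to 6311 peaks in T354M libraries, 7064 to 12171 in HA-GATA2 libraries, 1823 to 3648 in GATA2-low empty-vector libraries and 6555 to 9121 in wild-type libraries. The anti-HA lists held 426 to 744 peaks with T354M, 1912 to 6065 with HA-GATA2 and 1 to 6 with the empty vector, which has no tag. Read totals are unknown. The labelled cell type held against its markers, since 6 of 7 erythroid genes had a peak in 4 of 4 wild-type libraries, and 6 of 7 genes of other cell types in none. For replicate 1 of the GATA2-low empty-vector anti-GATA2 group the title and the genotype label differ (GATA2-low against wild-type), and its group is that of the title. Without that library the rule kept 443 sites. The labels name no separate cultures, so p-values cover the spread between libraries alone, and that spread may be technical. Fewer cells with a bound site and less binding in each cell cannot be told apart in these bulk libraries.

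The unreturned sites were weak peaks in wild-type cells. A peak's rank by the authors' -log10 q within its list gave a median percentile of 32.2 ± 4.41 over the 4 wild-type libraries (SD, n = 4), beside 50.3 ± 6.26 for the other lost sites. The median fold enrichment over the local background, also the authors' value, was 7.21, 7.15, 8.12 and 8.04 at the unreturned sites and 10.9, 10.7, 13.5 and 13.1 at the other lost sites. In each of these libraries the unreturned sites thus stood lower. A total of 307 of the 436 sites (70.4%) had a mean percentile under 40, and 31 (7.11%) had 60 or more. For the other lost sites the shares were 32.1% and 26.3%. The wild-type libraries took part in the rule, so these values carry no test. The unreturned sites had a median width of 466 bp, the other lost sites 605 bp and all sites 402 bp.

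The low folds came with a high local background. The whole number of fragments at each summit, and the background that the peak caller set against it, were recovered from the deposited fold and p. In wild-type replicates 1 to 4 the median summit held 27, 27, 29 and 25 fragments at the unreturned sites and 25, 25, 29 and 27 at the other lost sites. The median background was 2.65, 2.70, 2.33 and 2.04 fragments at the unreturned sites and 0.885, 0.930, 0.777 and 0.681 at the other lost sites. The 4 library medians of the fragments overlapped between both kinds of site, while those of the background were each higher at the unreturned sites. Split by position, the median summit of the unreturned sites held 34.5, 34.5, 35 and 28 fragments at gene starts and 24, 23, 26 and 23 away from them. Away from starts, where most unreturned sites lie, these medians were below those of all other lost sites, starts included, in each library. The fragments of the other lost sites were not split by position, so like positions were not compared. Within a library most backgrounds were whole multiples of one step, which was 0.882, 0.899, 0.777 and 0.681 fragments in replicates 1 to 4. Between 83.8% and 87.6% of the backgrounds at or above a step lay within 0.01 steps of a whole number. Counted this way, the median background was 3 steps at the unreturned sites and 1 step at the other lost sites in each of the 4 libraries. At gene starts it was 6 steps for unreturned and 4 steps for other lost sites, and away from starts 2 steps and 1 step, so single sites of both kinds overlapped. The sources used here do not state where the caller took the background from.

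**Figure D1:**
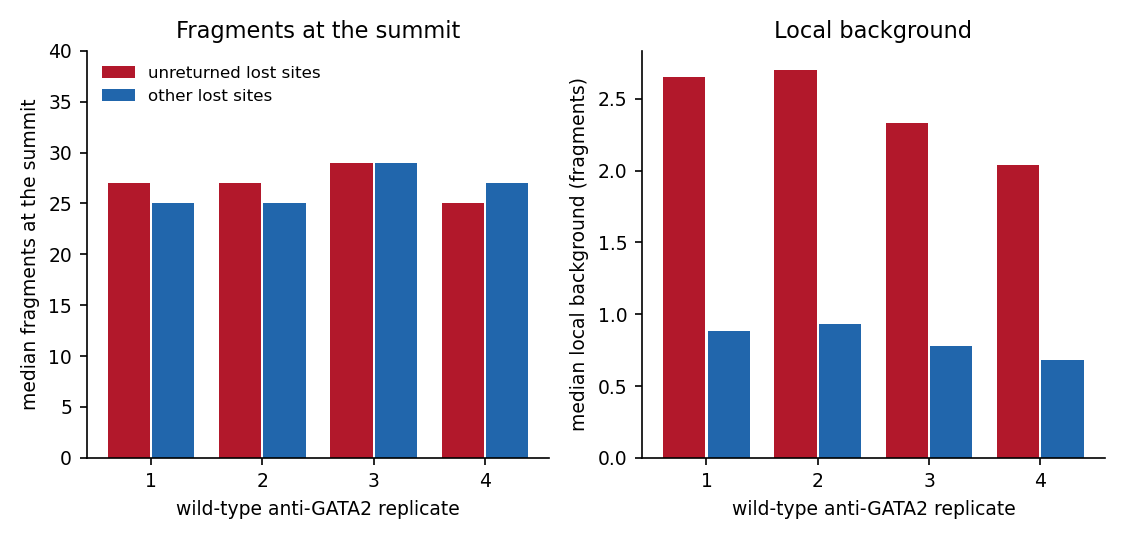
Median fragments at the summit (left) and median local background in fragments (right) in each wild-type anti-GATA2 library, for the unreturned lost sites (red) and the other lost sites (blue). Fragments lie between 25 and 29 for both, while the background of the unreturned sites is 2.04 to 2.70 against 0.681 to 0.930.

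The wild-type lists were also deeper than the GATA2-low ones. The lowest background of a list was 0.213, 0.168, 0.162 and 0.153 fragments in the GATA2-low empty-vector libraries and 0.289, 0.302, 0.246 and 0.222 in the wild-type libraries. When the fragments and background of each wild-type peak were scaled down to the GATA2-low mean, by factors of 0.577 to 0.785, the rule kept 206 sites, which cover 206 of the 436 (47.2%). Lost sites of both kinds together numbered 1032 with this scaling and 1524 without it, so the unreturned sites fell by the larger share. This setting was chosen after the data were seen. With the lists of the 4 anti-GATA2 groups shortened to the 1823 strongest peaks each, 32 sites were left. How far depth or the caller's background decided that a site had no peak in GATA2-low cells was not tested.

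By the rule's own readout, 168 of the unreturned sites had no HA-GATA2 peak, 116 had one in 1 library and 152 in 2. Just outside the rule, 243 lost sites had 3 HA-GATA2 libraries with a peak and 845 had 4. The median wild-type percentile was 27.8, 30.7 and 32.4 at the sites with 0, 1 and 2 HA-GATA2 libraries, and 39.8 and 50.4 at those with 3 and 4. HA-GATA2 replicate 1 had a peak at 5.73% of the unreturned sites, and replicates 2, 3 and 4 at 27.1%, 42.0% and 21.6%. The HA-GATA2 lists with more peaks had more of these sites, except that replicate 2, with 11012 peaks, had more of them than replicate 4, with 11333. Unreturned sites lay at a median distance of 42504 bp from the nearest site that HA-GATA2 held in 3 or 4 libraries. For an other lost site, the nearest such site apart from itself lay at a median of 25267 bp. The same HA-GATA2 counts define these sites and the rule, so the distances are not independent of the rule.

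The T354M libraries took no part in the rule. Anti-GATA2 found a T354M peak at 27.5%, 1.38%, 35.1% and 32.3% of the unreturned sites in replicates 1 to 4, with a mean of 24.1% ± 15.5 (SD, n = 4). At the other lost sites the values were 56.7%, 27.2%, 67.7% and 74.6%, with a mean of 56.6% ± 20.9. Over all sites they were 26.4%, 15.8%, 31.9% and 35.9%, with a mean of 27.5% ± 8.70. In each of the 4 libraries the unreturned sites were lower than the other lost sites, with differences (unreturned minus other lost) of -42.3 to -25.8 percentage points. Their mean was close to that of all sites, above it in replicates 1 and 3 and below it in replicates 2 and 4. Replicate 2 had the shortest list and the lowest value for both kinds of site, and without it the means were 31.7% ± 3.83 and 66.4% ± 9.04 (SD, n = 3).

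**Figure D2:**
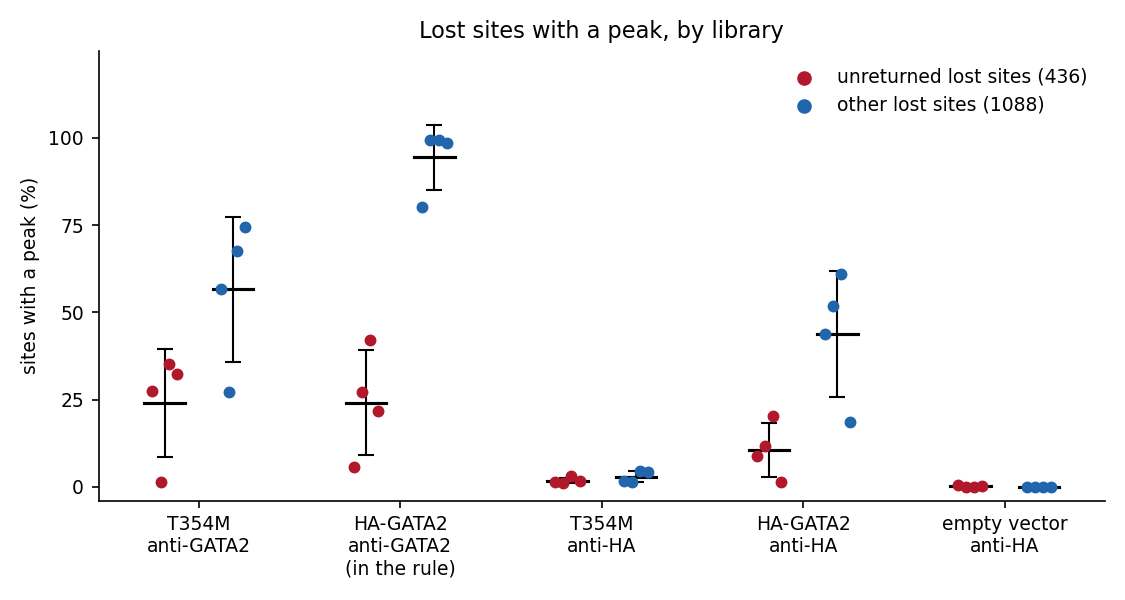
Percent of the unreturned lost sites (red) and of the other lost sites (blue) with a peak in each library of GATA2-low cells, with the mean (line) and SD over 4 libraries (error bars). The HA-GATA2 anti-GATA2 values are part of the rule; with T354M and anti-GATA2 the means are 24.1% and 56.6%, and with HA-GATA2 and anti-HA 10.6% and 43.8%.

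Site by site, 203 of the unreturned sites had no T354M anti-GATA2 peak, 71 had one in 2 libraries, 52 in 3 and 4 in all 4, and the rest had one in a single library. A peak in 3 or 4 T354M libraries stood at 56 unreturned sites (12.8%), beside 542 other lost sites (49.8%). The 203 sites had 0 of 4 T354M against 4 of 4 wild-type libraries, of which the wild-type side was fixed by the rule. Of all 11889 sites in this comparison, which were not chosen that way, 4.03% had that split. At 4 sites all T354M and no empty-vector library had a peak, and the rule fixed the empty-vector side at 0. Over all 7613 sites of that comparison the share was 5.87%, and without T354M replicate 2 the split occurred at 55 unreturned sites. Since the rule used one side of both comparisons, no test is given for them.

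At 131 of the unreturned sites (30.0%), more T354M than HA-GATA2 libraries had an anti-GATA2 peak. In 15 of them T354M had a peak in 3 or 4 libraries and HA-GATA2 in none. The rule allows at most 2 of 4 HA-GATA2 libraries and so favours both counts. Their shares over all sites are not given here, so they say nothing particular about T354M. The split of 4 of 4 T354M against 0 of 4 HA-GATA2 libraries occurred at 5 of 14531 sites (0.0344%), and 2 of these 5 were unreturned sites. They were chosen for a low HA-GATA2 count, so this side of the split was favoured by the rule. One lay inside IGF2R, which encodes the receptor that clears insulin-like growth factor 2 and sorts lysosomal enzymes, at chr6:160051303-160051772. Its fold was 13.5, 10.9, 16.2 and 18.9 in T354M libraries and 27.0, 19.4, 21.8 and 21.7 in wild-type libraries, with no peak in HA-GATA2 or empty-vector libraries. The other lay 7441 bp from LTBP2, a gene of a matrix protein, at chr14:74619679-74620199. Its fold was 11.5, 9.63, 14.7 and 15.3 in T354M libraries and 6.03, 8.66, 11.7 and 16.7 in wild-type libraries. No test is given for either, since the rule used the HA-GATA2 libraries.

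With the antibody against the tag, few unreturned sites had a peak. T354M libraries had one at 1.38%, 1.15%, 2.98% and 1.61% of them (mean 1.78% ± 0.824, SD, n = 4), beside 2.87% ± 1.62 of the other lost sites and 3.41% ± 0.953 of all sites. HA-GATA2 libraries had one at 8.94%, 11.7%, 20.2% and 1.38% (mean 10.6% ± 7.76), beside 43.8% ± 18.2 of the other lost sites and 24.3% ± 10.1 of all sites. The HA-GATA2 anti-HA libraries also took no part in the rule, and in each of the 4 the unreturned sites were lower than the other lost sites, with differences of -40.8 to -17.2 points. Replicate 4, with 1912 peaks, was the lowest, and without it the means were 13.6% ± 5.86 and 52.2% ± 8.55 (SD, n = 3). The empty vector had an anti-HA peak at 2 unreturned sites, both at histone genes.

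At least 1 HA-GATA2 library had an anti-HA peak at 121 unreturned sites (27.8%) and at 758 other lost sites (69.7%). In 41 of the 121 no HA-GATA2 library had an anti-GATA2 peak. A single anti-HA library is enough for this count, and the rule favoured a low anti-GATA2 count. Whether the 2 antibodies differ at these sites was not tested. At 2 unreturned sites all 4 HA-GATA2 anti-HA libraries had a peak while none of the empty vector did, against 25.3% of the 6916 sites tested. One was inside MBNL2, an RNA splicing factor gene, at chr13:97257883-97258857, with folds of 6.81, 9.44, 14.8 and 6.59. The other was inside NEAT1, a long noncoding RNA that builds nuclear paraspeckles, at chr11:65426127-65427643, with folds of 8.81, 8.08, 7.79 and 6.96. The NEAT1 site also had a peak in all 4 T354M anti-HA libraries and was the 1 unreturned site with that split against the empty vector (22.3% of 1079 sites tested). MBNL2 had no T354M anti-HA peak. It was the 1 unreturned site with the split of 0 of 4 T354M against 4 of 4 HA-GATA2 anti-HA libraries. Of 6944 sites tested, 13.6% had that split. With anti-GATA2, however, the MBNL2 site had a peak in 3 T354M libraries and in 2 HA-GATA2 libraries. The anti-HA libraries took no part in the rule, and each of these splits has p = 0.0286 in Fisher's exact test (two-sided), and the smallest Benjamini-Hochberg adjusted p over all sites was 0.113 for HA-GATA2 over the empty vector, 0.128 for T354M over the empty vector and 0.211 for T354M against HA-GATA2. Without HA-GATA2 replicate 4, the split against the empty vector occurred at 16 unreturned sites and the split against T354M at 12.

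Inside EIF2AK1, the kinase that slows translation when heme is short, a site at chr7:6058815-6059278 had anti-HA folds of 17.2, 11.1 and 9.45 in 3 HA-GATA2 libraries and none with T354M. With anti-GATA2 the EIF2AK1 site had folds of 13.6 and 8.19 in 2 HA-GATA2 libraries and of 16.3, 14.7, 9.01 and 9.85 in wild-type libraries. A site inside CCBE1, a gene of lymphatic vessel growth, at chr18:59516399-59516991 had anti-HA folds of 7.44, 9.86 and 10.9 with HA-GATA2. CCBE1 had an anti-GATA2 peak in 3 T354M libraries and 2 HA-GATA2 libraries, and its wild-type folds were 26.4, 25.3, 27.3 and 18.0. Folds come from separate lists, and their heights cannot be compared between groups beyond this description.

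Gene starts held 184 of 416 unreturned sites (44.2%, exact 95% interval 39.4 to 49.2), where a start is the window from 250 bases before to 50 after a RefSeq start of a protein-coding gene. The same was true of 183 of 1002 other lost sites (18.3%), 2591 of 16263 sites in all (15.9%) and 86 of 1188 sites that had a peak in 4 of 4 GATA2-low and 4 of 4 wild-type libraries (7.24%). Chromosome 8 was left out of these counts because its start windows were not used here. The intervals (Clopper-Pearson) cover counting error only, and no enrichment was tested. Of the other unreturned sites, 124 lay inside a gene and 108 outside genes. In the window of 1000 bp around either end of a gene, the shares were 53.4% of unreturned sites, 23.3% of other lost sites and 20.9% of all sites. With scaled wild-type depth the share at starts was 33.5%, and with lists of equal length it was 0% of the sites left.

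**Figure D3:**
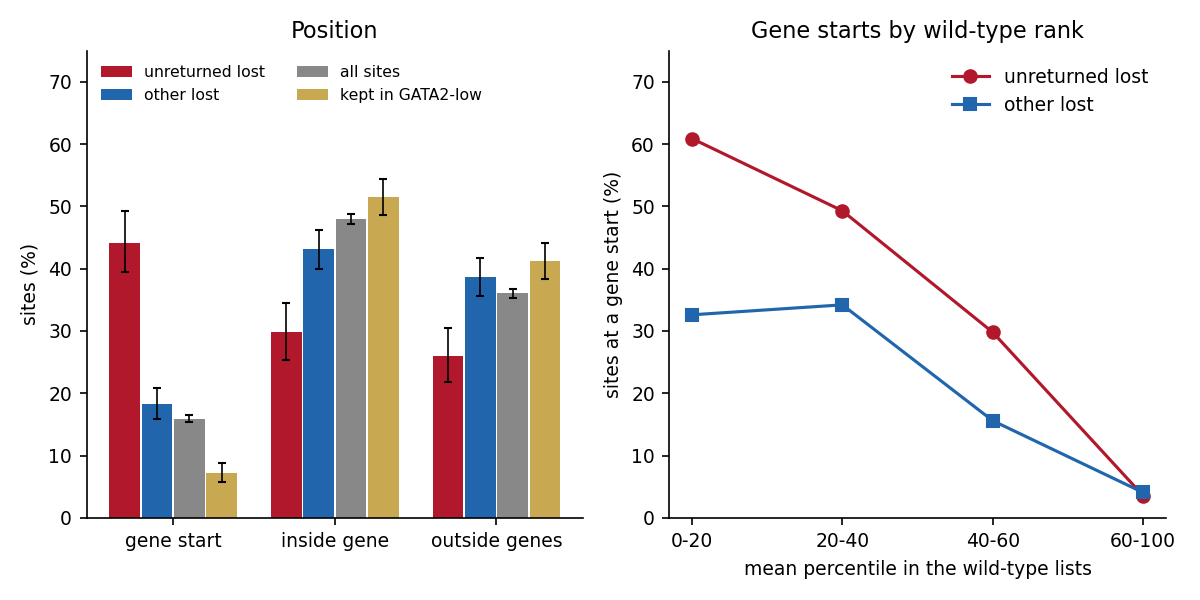
Left, percent of sites at a gene start, inside a gene or outside genes for 4 sets of sites, with exact 95% intervals; right, percent at a gene start in 4 ranges of the mean percentile in the wild-type lists. Unreturned sites are at starts in 44.2% of cases, and at a mean percentile of 60 or more the share is 3.57% of unreturned and 4.07% of other lost sites.

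Rank went with position. Among unreturned sites with a mean wild-type percentile under 20, 60.9% lay at a start, and the shares were 49.3% from 20 to 40, 29.8% from 40 to 60 and 3.57% at 60 or more. For the other lost sites the shares in these ranges were 32.6%, 34.2%, 15.6% and 4.07%, so the unreturned sites were higher in the lower 3 ranges. T354M occupancy did not follow rank in the same way for both kinds of site. The mean percent of unreturned sites with a T354M anti-GATA2 peak was 21.4, 24.7, 25.3 and 24.2 from the lowest to the highest range, against 28.2, 46.7, 56.5 and 72.2 for the other lost sites. For HA-GATA2 with anti-HA the means were 8.24, 10.2, 13.0 and 12.1 at unreturned sites, against 33.3, 30.5, 43.4 and 60.1 at other lost sites. The highest range holds 31 unreturned sites. At starts, T354M libraries 1 to 4 had an anti-GATA2 peak at 35.3%, 0.543%, 47.3% and 33.2% of the unreturned sites, a mean of 29.1%, beside means of 19.6% ± 12.5 inside genes and 18.5% ± 11.9 outside (SD, n = 4).

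The letters around the starts were counted in 268 windows of 227 genes at unreturned sites. One of the 4 GATA spellings stood in 44 of them (16.4%, exact 95% interval 12.2 to 21.4), against 28.6% of 252 windows at other lost sites, 39.2% of 120 windows at sites kept in GATA2-low cells and 4419 of all 22132 windows (interval of that share 19.4% to 20.5%). The share at unreturned sites thus lay close to that of all windows, and below those of the other lost and kept sites. The GC box stood in 78.7% at unreturned sites, 75.4% at other lost sites, 59.2% at kept sites and 56.3% of all windows. For the CCAAT box the shares were 45.9%, 54.4%, 42.5% and 34.6%, and for the ETS letters 29.9%, 23.8%, 24.2% and 21.2%. The E box (CANNTG) went the other way, with 53.0%, 57.5%, 61.7% and 65.1%. At unreturned sites the RUNX letters (TGTGGT) were in 8.96% of windows, the AP-1 letters (TGANTCA) in 3.36% and the CRE in 3.73%, against 11.3%, 6.15% and 2.26% of all windows. Both strands were searched, and some matches overlap others. Windows are not all independent, since a gene can have several and 43 unreturned sites lay at the starts of more than 1 gene. The intervals cover counting error only and may be too narrow. Median G and C content was 64.7% at unreturned sites and 62.3% over all windows. A match is a run of letters and not a measured binding site.

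**Figure D4:**
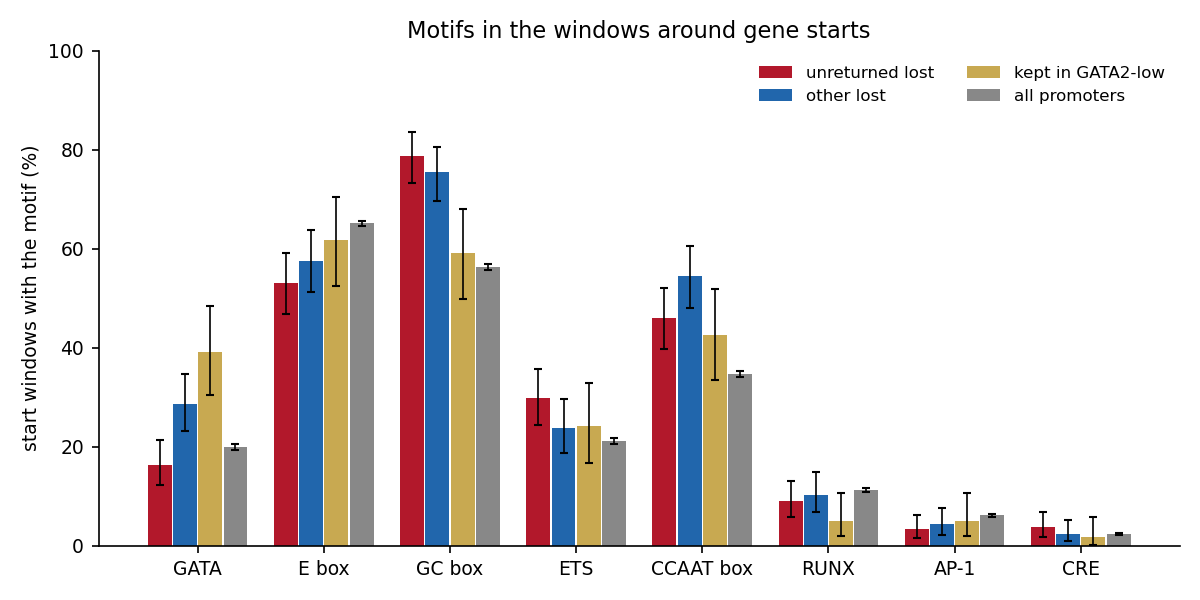
Percent of start windows that hold each named motif on either strand, at unreturned lost sites, other lost sites, sites kept in GATA2-low cells and over all windows, with exact 95% intervals. The intervals treat the windows as independent. GATA letters are in 16.4% of windows at unreturned sites and 39.2% at kept sites, and the GC box in 78.7% and 59.2%.

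The 35 unreturned sites at starts with GATA letters and the 149 without had a T354M anti-GATA2 peak in 30.7% and 28.7% of library and site pairs. For the other lost sites at starts the T354M values were 42.8% with the letters and 53.0% without. For HA-GATA2 with anti-HA the values were 15% and 9.56% at unreturned sites, and 33.1% with the letters and 17.7% without at the other lost sites. The HA-GATA2 anti-HA shares were thus higher with the letters in both kinds of site, and the T354M share at the other lost sites was lower. Sites with the letters also ranked higher in wild-type cells, with median percentiles of 31.3 and 24.6 at unreturned and 42.4 and 35.0 at other lost sites, and no test was made.

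Chromosome 19 held the most unreturned sites, 68 (15.6%), against 3.12% of the other lost sites and 4.32% of all sites. Starts made up 45 of the 68, which is 24.5% of the unreturned sites at starts, where chromosome 19 held 6.56% of the other lost sites at starts and 10.4% of all sites at starts. Away from starts its share was 9.91% of unreturned and 2.69% of other lost sites. The X chromosome held 4 unreturned sites (0.917%), against 3.49% of other lost sites.

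The lists of blood genes held 9 unreturned sites among the 477 sites in or near their 237 genes (1.89%), close to the 2.52% of all sites. Of 20 core GATA2 targets and partners, 2 had an unreturned site in their body or within 10 kb, against 5 with another lost site and 15 with any site. The site at the start of MYB, chr6:135181018-135181438, had an anti-GATA2 fold of 13.6 in 1 T354M library, folds of 12.0 and 11.7 in 2 HA-GATA2 libraries and wild-type folds of 7.96, 10.4, 12.9 and 11.0. The site inside RUNX1, the transcription factor of blood stem cell formation, at chr21:34889767-34890184 had wild-type folds of 9.58, 4.57, 5.36 and 5.64 and HA-GATA2 anti-HA folds of 6.16, 7.08 and 7.73 in 3 libraries. At both genes the wild-type values were those of weak or middling peaks, with mean percentiles of 43.1 at MYB and 13.3 at RUNX1.

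Among 37 red cell membrane and iron genes 2 had an unreturned site. At the start of FTL, chr19:48965100-48965513, the wild-type folds were 4.32, 5.22, 4.35 and 4.99, and 1 HA-GATA2 anti-HA library had a peak with a fold of 6.89. Inside ANK1, which encodes the ankyrin that anchors the red cell skeleton, the wild-type folds were 8.56, 13.5, 10.9 and 8.89, and 3 T354M libraries had a peak against 1 HA-GATA2 library. The heme enzyme gene ALAD had one within 10 kb, at the start of the neighbouring DNA polymerase gene POLE3, with wild-type folds of 6.62, 4.37, 4.59 and 6.17. Among cytokine genes, EPOR (the erythropoietin receptor) had a site with wild-type folds of 5.30, 6.79, 5.11 and 6.47 and peaks in 2 HA-GATA2 and 0 T354M libraries. STAT6, a mediator of interleukin 4 signals, had one with folds of 10.2, 7.76, 10.6 and 5.26 and no anti-GATA2 peak in any GATA2-low library. No unreturned site was near the 29 erythroid transcription factor genes, the 24 mast cell, basophil and eosinophil genes or the 25 lymphocyte genes. Of these genes 23, 14 and 6 had some site. Those lists held 79, 28 and 7 sites in all, few for a share of 2.52% over all sites. Their lack of an unreturned site thus says nothing particular about them.

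The 12 lists of housekeeping, zinc finger and histone genes held 83 unreturned sites among 1596 (5.20%) and 100 other lost sites (6.27%), beside 2.52% and 6.30% of all sites. No test was made of these shares, and the lists share sites. Of 135 splicing and RNA processing genes 9 had an unreturned site and 9 another lost site, and 76 had any site. Of 77 mitochondrial ribosomal protein genes 5 had an unreturned and 3 another lost site, of 100 translation factor and tRNA ligase genes 8 and 5, and of 107 RNA polymerase and general transcription genes 5 and 1. Proteasome and ubiquitin genes had 8 and 14 of 221, vesicle traffic genes 10 and 14 of 191, and cell cycle genes 3 and 9 of 121. Chromatin regulators had 8 unreturned sites among 168 (4.76%), and respiratory chain genes 1 and 4 of 102, with 1 unreturned site among 76 (1.32%). Cytosolic ribosomal protein genes had 5 and 2 of 86. Zinc finger genes of the ZNF name had 19 of 556 with an unreturned and 12 with another lost site. Among sites near the genes, the unreturned share was 7.26% for splicing, 7.58% for mitochondrial ribosomal, 8.42% for translation and 4.85% for RNA polymerase genes. It was 4.59% for vesicle traffic, 7.59% for cytosolic ribosomal and 7.02% for ZNF genes. For proteasome genes, at 3.03%, and cell cycle genes, at 2.10%, it was near the 2.52% of all sites, so the lists differed.

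At the start of MRPL34, a mitochondrial ribosomal gene at chr19:17305439-17306025, the wild-type summits held 58, 64, 67 and 57 fragments while the folds were only 3.90, 5.13, 5.07 and 5.17. T354M folds there were 4.69, 3.22 and 3.75 in 3 libraries and HA-GATA2 folds 3.45 and 3.43 in 2. CIC, a transcriptional repressor gene, showed this more sharply at chr19:42268441-42269173, with wild-type folds of 2.81, 3.01, 3.00 and 3.23 at a mean percentile of 52.3 and no anti-GATA2 peak in any GATA2-low library. The start of POLR2A, the large subunit of RNA polymerase II, had wild-type folds of 7.95, 5.88, 5.60 and 7.56 and no T354M or HA-GATA2 anti-GATA2 peak. HNRNPA0, an RNA-binding protein gene, had folds of 4.77, 12.2, 12.1 and 14.0 at its start, with T354M peaks in 2 and an HA-GATA2 peak in 1 library. SIRT1, a protein deacetylase gene, had a peak in no library outside wild-type, where its summit held 11, 13, 13 and 13 fragments.

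Histone genes lie in clusters, and 6 unreturned sites lay within 10 kb of 21 of them. The site at the starts of H2BC11 and H2AC11, chr6:27132461-27133163, had anti-HA folds of 4.10, 5.07, 4.74 and 4.34 with T354M and 4.72, 3.81 and 5.41 in 3 HA-GATA2 libraries, and 1 empty-vector library also had a peak. The site at the starts of H2AC14 and H2BC14, chr6:27814570-27815483, had 4.66, 5.15, 5.75 and 5.06 with T354M and 5.89, 4.85 and 6.12 in 3 HA-GATA2 libraries, with a peak in 2 empty-vector libraries. Cells with the empty vector carry no tag, so their anti-HA peaks at these 2 sites do not come from a tagged protein. Of the 3 unreturned sites with an anti-HA peak in all 4 T354M libraries, they are 2, and NEAT1 is the other. Nearly identical histone copies can share reads, and how the authors' alignment placed such reads is not stated here.

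Of the 28 unreturned sites with a mean percentile of 60 or more that could be placed, 1 lay at a gene start. The next sites are set apart by another measure, the absence of any peak outside wild-type cells. A total of 71 unreturned sites (16.3%) had a peak in no library other than the 4 wild-type ones, and they are all of the 71 such sites among the 4806 with a peak in 4 of 4 wild-type libraries, since the rule takes in any such site. Inside ROBO2, an axon guidance receptor gene, 3 of them stood within 168739 bp. At chr3:77235911-77236930 the wild-type folds were 43.5, 45.3, 57.8 and 47.5, at chr3:77179571-77180390 they were 45.8, 32.3, 39.3 and 42.5, and at chr3:77068192-77069156 they were 16.5, 23.7, 20.3 and 16.1. Between them lay 2 further sites, with a peak in 3 and in 1 of the wild-type libraries. The 5 sites held 16 peaks in wild-type libraries and 0 in the other 24 libraries. No other site lay within 1632442 bp before or 4312412 bp after the run.

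**Figure D5:**
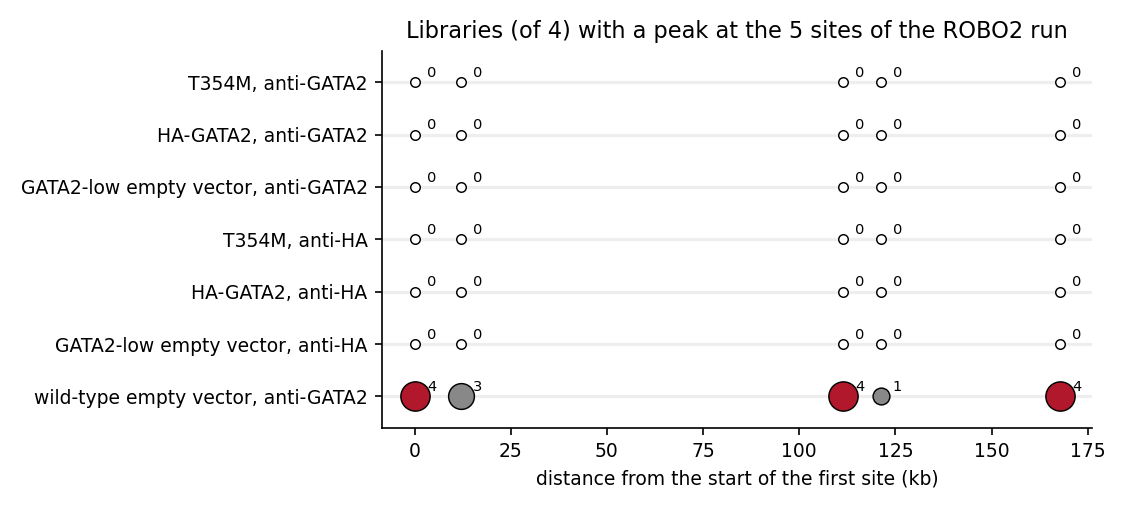
Number of libraries (of 4) with a peak at the 5 sites inside ROBO2, by group, against the distance from the start of the first site in kb; red marks unreturned lost sites and grey the 2 sites between them. All 16 peaks are in wild-type libraries, and the 6 groups of GATA2-low cells have none.

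DCC, another axon guidance receptor gene, had an unreturned site at chr18:53191749-53192397 with wild-type folds of 22.3, 31.7, 38.6 and 35.8 and no peak in the other 24 libraries. The site with the highest mean percentile, 92.9, lay outside genes at chr20:29629132-29629900. Its folds were 18.2 in 1 HA-GATA2 library and 48.9, 41.5, 53.8 and 55.6 in the wild-type libraries. A site at chr15:96924547-96925081, outside genes, had folds of 11.1 in 1 T354M library, 9.20 and 7.42 in 2 HA-GATA2 libraries and 27.9, 26.9, 37.7 and 41.7 in wild-type libraries. Its mean percentile was 84.2, and that of the DCC site was 82.9.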

How the data were processed

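CUT&Tag libraries of HUDEP-2 cells were grouped by their titles into 7 groups of 4, and 8 IgG libraries, 2 of which carry an anti-HA label beside an IgG title, were not analysed here. The submitters' processing notes name MACS2 2.2.7.1, Bowtie2 2.2.5 (build hg38), deepTools 3.5.3, cutadapt 3.3 and FastQC, without settings in the sources used here. The authors deposited 1 peak list per library, not of pooled libraries. Each peak carries a deposited fold enrichment (a ratio on a linear scale), p and q as deposited -log10 values, and its deposited score is a whole number that was not used.

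Peaks were merged (overlap of 1 bp), with 455 of 120964 on other sequences left out. Fisher's exact test (two-sided) ran, for each comparison, on all sites that had any peak among its 8 libraries, with Benjamini-Hochberg adjustment over all of them (scipy 1.17.1, Python 3.11.15). Merging and test were tested on simulated data. Recovering fragments from fold and p succeeded, within 0.03%, for 99.0% to 100% of the peaks of a list. Genes and start windows are RefSeq's (GRCh38.p14). Coordinates are 1-based. The sites, lists and tests were chosen with earlier results of these data known. Named are all unreturned sites within 10 kb of blood list genes, up to 5 per other list, and by rank the strongest, the most T354M-bound, the most HA-bound and the wild-type-only ones; not all of these are described, and NEAT1 was read from the RefSeq table after its values were seen. Replicate numbers did not pair the libraries.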

Additional observations from a re-analysis of the deposited data

Results flagged for a closer look

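HA-GATA2 anti-GATA2 replicate 1 had a peak at 80.3% of the other lost sites, far below replicates 2 to 4, at 99.3%, 99.5% and 98.5%, and it also had the lowest share of the unreturned sites, 5.73%, and the shortest list of its group, 7064 peaks. Without that library, and with at most 1 of 3 HA-GATA2 libraries, the rule kept 304 sites. T354M anti-HA replicate 3 had a peak at 3.80% of the unreturned sites at gene starts, against 2.17% in each of the other 3 libraries. Both gaps lie in groups of 4 libraries, where such gaps can arise by chance, and neither was tested. The HA-GATA2 anti-GATA2 libraries also took part in the rule that defines the other lost sites, so no chance rate applies to their gap.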

How the results depend on the processing

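With a -log10 q of at least 15 the rule kept 260 sites, of which 30.6% lay at a start, with a median wild-type percentile of 53.3 and T354M anti-HA peaks at 0.769%; the splits then occurred at 0 unreturned sites (T354M against HA-GATA2, anti-HA), 1 (T354M over empty vector, anti-GATA2), 0 (HA-GATA2 over empty vector, anti-HA) and 134 (T354M below wild-type). Lists of equal length left 32 sites, with a percentile of 84.4, HA-GATA2 anti-HA peaks at 62.5% and 0% at a start. With no HA-GATA2 library allowed, 168 sites were left, and with 1000 bp around gene ends 53.4% lay there. With wild-type depth scaled, an alternative chosen after the data were seen, 206 sites were left, at a percentile of 45.0 and 33.5% at a start. The mean T354M anti-GATA2 share, 24.1% in the main setting, ran from 18.0% with lists of equal length to 25.8% with wild-type depth scaled. With peaks trimmed around the summit it was 24.3%. These moves are smaller than its SD of 15.5, but that SD is wide and was 3.83 without T354M replicate 2. Staying within it thus says little about stability.

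Leaving out 1 library at a time gave 304 to 651 unreturned sites, 20.4% to 31.7% with T354M anti-GATA2, 7.34% to 13.6% with HA-GATA2 anti-HA, 1.25% to 2.22% with T354M anti-HA, 41.9% to 45.8% at starts and percentiles of 29.4 to 32.9. The splits ran from 4 to 55 (T354M over empty vector, anti-GATA2), 203 to 347 (T354M below wild-type), 1 to 12 (T354M below HA-GATA2, anti-HA), 2 to 16 (HA-GATA2 over empty vector) and 1 to 2 (T354M over empty vector, anti-HA). The 55 came without T354M anti-GATA2 replicate 2, the 334 and 347 without wild-type replicates 1 and 2, and the 12 and 16 without HA-GATA2 anti-HA replicate 4; the T354M over empty vector split occurred at 7 sites without empty-vector anti-GATA2 replicate 3 and at 2, for anti-HA, without empty-vector anti-HA replicate 1.

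Adjusted over all sites, Fisher's exact test called 0 unreturned sites in each comparison. Adjusted over sites with exactly 4 peaks in the 8 libraries it called all of those with the split in the anti-HA comparisons. Against the empty vector, whose anti-HA lists held 1 to 6 peaks, nearly all such sites have the split. They were 1753 of 1754 with HA-GATA2 and 241 of 241 with T354M, so those calls were close to fixed in advance and say nothing. In the anti-GATA2 comparisons, where the rule used one side and a call says nothing, it called 2 for T354M over HA-GATA2 and 0 for T354M over the empty vector and below wild-type. With the replicate number as a block, an exact sign test over 4 pairs cannot go below p = 0.125 and called 0 sites; correlations of same-numbered libraries ran from -0.0599 to 0.117, so the numbers were not taken as pairs. Depth is known only as a lowest background, and IgG libraries were not analysed here. Presence of a peak depends on the caller's threshold in each list, so an absent peak is not an absence of GATA2.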

Other observations

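Around the ROBO2 run the next site upstream, at chr3:75435180-75435749, had an anti-GATA2 peak in 3 of 4 T354M, 3 of 4 HA-GATA2, 1 of 4 GATA2-low empty-vector and 4 of 4 wild-type libraries. The next 2 before it, at chr3:75144124-75144937 and chr3:75136196-75136768, had one in 3 and in 4 GATA2-low empty-vector libraries and in 4 of 4 libraries of T354M, HA-GATA2 and wild-type cells. Near the IGF2R site, the site at chr6:160101256-160102099 had an anti-GATA2 peak in all 16 libraries. The start of DCC, at chr18:51197908-51198263, was itself an unreturned site, with a peak in 1 of 4 T354M, 0 of 4 HA-GATA2 and 4 of 4 wild-type libraries and a mean wild-type percentile of 11.1, while the site inside the gene had 82.9.

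Of the 71 unreturned sites with a peak in wild-type libraries alone, 23 of the 70 that could be placed lay at a gene start (32.9%), and their median wild-type percentile was 32.5. Within 10 kb of a site that HA-GATA2 held in 3 or 4 libraries lay 21.8% of the unreturned and 35.3% of the other lost sites. These shares are not independent of the rule, which used the same HA-GATA2 counts. Windows of 1 Mb with 4 unreturned sites occurred 6 times, 4 of them on chromosome 19.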
